A study of Mus musculus with 22 samples.

Results

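Transcripts of 6 Fc receptor genes were followed in sorted lung monocytes and alveolar macrophages of mice with an inducible surfactant protein-C injury. The genes were chosen by name as a receptor family: Fcgr1, Fcgr3 and Fcgr4, which encode activating receptors for IgG; Fcgr2b, which encodes the inhibitory IgG receptor; Fcer1g, which encodes the signalling gamma chain; and Fcgrt, which encodes the heavy chain of the neonatal Fc receptor. All 6 were among the 31116 genes present in both count tables, and all 6 passed the filter on low counts in every fit. The lowest count of any of them in any sample was 106.

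The mice were C57BL/6 and carried the SP-CI73T mutant, a change in surfactant protein-C, a protein made by alveolar type II cells. Injury was started with oral tamoxifen, which removes a cassette that holds the mutant allele at a low level, and cells were taken 3 d and 14 d later. Control mice carried the same allele at its low level and were labelled untreated, while the study describes the controls of the sequenced monocytes as mice given oil. Its methods also pool tamoxifen-treated mice without the recombinase into control groups, and the kind of the macrophage controls is not given in the sources used here. There were 4 control, 4 3 d and 4 14 d samples of Ly6Chi monocytes, and 4 control, 3 3 d and 3 14 d samples of SigF+CD11b- alveolar macrophages. The gates matter for this family. The study describes its monocytes as negative for CD64, the protein of Fcgr1, and the cells were incubated with an antibody to CD16/32, the proteins of Fcgr3 and Fcgr2b, before staining. A transcript can still be present in a cell that lacks the surface protein. Nothing in the labels says which samples came from the same animal, so the tests measure only the spread between these samples.

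Receptors for the constant part of IgG let myeloid cells take up and answer to antibody-coated particles. The activating receptors FcγRI, FcγRIII and FcγRIV signal through the gamma chain and Syk family kinases, whereas FcγRIIb carries an inhibitory motif that recruits the phosphatase SHIP1, so the ratio of activating to inhibitory receptors sets the threshold for a response. FcRn, the product of Fcgrt, binds IgG in acidic endosomes and returns it to the surface in place of degradation, and it pairs with β2-microglobulin.

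The labelled cell types carried their markers. Levels are in CPM, a gene's counts scaled to the same total in every library. Ly6c2, a Ly6Chi monocyte gene, lay between 1314 and 3459 CPM in monocytes and between 1.18 and 6.19 CPM in macrophages, and Siglecf, which encodes the SigF used for the sort, lay between 90.1 and 348 CPM in macrophages and between 0.8 and 29.2 CPM in monocytes. Within monocytes Ly6c2 was at 2570 to 3281 CPM in control, 2668 to 3459 CPM at 3 d and 1314 to 1790 CPM at 14 d. Of 7 monocyte markers, 3 were called lower at 3 d (Itgam, Csf1r and Cx3cr1) and none higher. At 14 d 4 were called lower (Ly6c2, Csf1r, Cx3cr1 and Plac8) and none higher. Lower calls made up 14.4% (3 d) and 5.34% (14 d) of all genes. Total counts ran from 15451460 to 28789639 in monocytes and from 4610720 to 17074863 in macrophages, with the 14 d macrophages lowest at 4610720 to 6838893. The 3 d monocytes and the 14 d macrophages stood apart from the other groups of their cell type: more genes had a count (40119 to 41134 against 24775 to 32492 in the other monocytes, and 27699 to 30627 against 21499 to 27616 in the other macrophages), and the TMM scaling factors were 1.2 to 1.24 and 1.17 to 1.29 against 0.841 to 0.993 elsewhere. The median log2 fold change of well-expressed genes (mean log2 CPM above 3) was not at 0 in these groups, but at -0.47 for 3 d monocytes and -0.49 for 14 d macrophages against control, while it was -0.03 for 14 d monocytes and -0.05 for 3 d macrophages. Changes are therefore also given relative to that median. The 14 d samples of both cell types further differed from control and 3 d samples in the sex of the mice: Y-linked genes had 433 to 3033 counts per library at 14 d and 0 to 3 counts in the control and 3 d libraries. Sex and the 14 d time point cannot be told apart.

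Gene positions are given on GRCm38 from the GENCODE annotation. Of the low-affinity receptor genes, Fcgr2b lay at chr1:170958617-170976547 on the minus strand, Fcgr4 at chr1:171018920-171029761 on the plus strand and Fcgr3 at chr1:171051174-171064935 on the minus strand, and Fcer1g followed at chr1:171229572-171234365 on the minus strand. Fcgr1 lay apart at chr3:96282909-96293969 and Fcgrt at chr7:45092990-45103851, both on the minus strand. Fcgr2b and Fcgr3 have near-identical extracellular parts, so that reads could be assigned to either gene. Of all stretches of 50 bases, 6.95% in Fcgr2b and 9.58% in Fcgr3 also occurred in other genes, which fell to 1.92% and 0% at 150 bases, the length of each read of a pair. Fcgr2b also overlaps Gm38204 on the opposite strand by 155 bases, where reads of either cannot be told apart if the counting ignored strand, which is not given in the sources used here. The longest coding run that both transcripts share exactly, 129 bases across the junction of exons 3 and 4, is shown because it is the stretch where the inhibitory and an activating receptor cannot be separated by a short read. It covers chr1:170967980-170968081 and chr1:170966674-170966700 in Fcgr2b and chr1:171057691-171057792 and chr1:171054167-171054193 in Fcgr3:
shared run: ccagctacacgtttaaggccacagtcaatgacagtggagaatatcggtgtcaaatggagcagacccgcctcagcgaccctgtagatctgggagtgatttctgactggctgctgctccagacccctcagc

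By level per kilobase of exon (CPM per kb), Fcer1g was the highest member in every group. Of Fcgr1, Fcgr2b, Fcgr3 and Fcgr4, Fcgr3 was the highest in each group. In control monocytes Fcer1g was at 3406 ± 243 CPM per kb (SD, n = 4) and Fcgr3 at 545 ± 48.6. Below them Fcgr4 (156 ± 57.6), Fcgr1 (117 ± 6.06) and Fcgr2b (105 ± 17.1) had overlapping samples, and Fcgrt was lowest at 70.6 ± 12.8 CPM per kb. In control macrophages the order differed: after Fcer1g (544 ± 14.1) came Fcgrt (258 ± 41.7) and Fcgr3 (256 ± 15.6), whose samples overlapped, then Fcgr4 (151 ± 11.8), Fcgr2b (53.9 ± 9.51) and Fcgr1 (31.8 ± 5.32), none of which overlapped. Fcgr2b has 5790 exonic bases against 3544 in its longest coding transcript, so its level per kb is a low estimate.

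**Figure D1:**
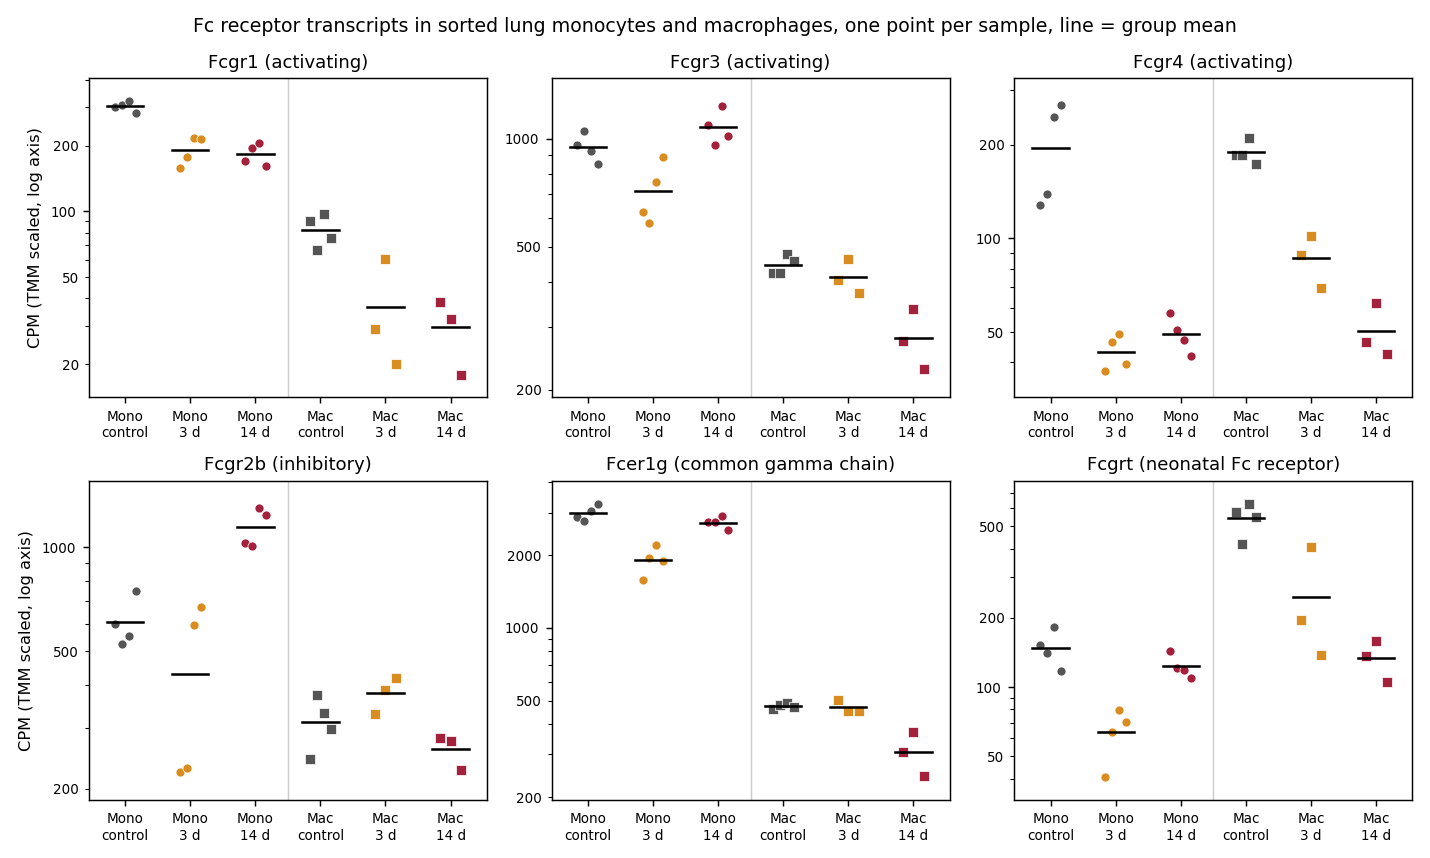
Level of each Fc receptor transcript in every sample, in CPM scaled by TMM within each cell type, on a log axis (6 panels, 6 groups; circles are monocytes, squares macrophages, bars group means). Fcgr4 fell from a mean of 196 CPM in control monocytes to 43.2 and 49.4 CPM, and from 189 CPM in control macrophages to 86.5 and 50.4 CPM.

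Fcgr4, which encodes the activating receptor FcγRIV that binds IgG2a and IgG2b, fell in all 4 comparisons with control. In monocytes its samples held 128, 139, 246 and 269 CPM in control, 37.5, 46.5, 49.5 and 39.5 CPM at 3 d, and 57.8, 50.8, 47.2 and 41.8 CPM at 14 d. Every injury sample lay below every control sample, and the control samples themselves formed a lower and a higher pair. Its log2 fold change was -2.18 ± 0.23 (SE) at 3 d (a 4.52-fold fall, adjusted p = 0.000138 by the edgeR quasi-likelihood test) and -1.99 ± 0.23 at 14 d (3.96-fold, adjusted p = 0.000102). The change between 3 d and 14 d was 0.19 with a 95% interval from -0.29 to 0.67.

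In macrophages Fcgr4 held 186, 186, 210 and 174 CPM in control, 88.6, 102 and 69.2 CPM at 3 d, and 46.5, 62 and 42.6 CPM at 14 d. The 3 groups did not overlap with each other. It changed by a log2 fold of -1.13 ± 0.16 at 3 d (2.18-fold, adjusted p = 0.00313), -1.91 ± 0.17 at 14 d (3.75-fold, adjusted p = 9.72e-07) and -0.78 ± 0.17 between 3 d and 14 d (adjusted p = 0.00163). The last value was not called with library size, upper quartile or well-expressed-gene scaling, where it was between -0.48 and -0.30. Against the median of well-expressed genes, Fcgr4 had log2 fold changes of -1.71 (3 d) and -1.96 (14 d) in monocytes and -1.08 and -1.42 in macrophages.

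Markers of some other cells moved with Fcgr4 in monocytes. Patrolling monocytes and NK cells also express this gene or its relatives, and the summed level of 7 patrolling-monocyte markers was 3216 to 3961 CPM in control, 672 to 1286 CPM at 3 d and 700 to 1310 CPM at 14 d. Of these markers 7 of 7 were called lower at 3 d and 6 of 7 at 14 d, with Nr4a1, the nuclear receptor that patrolling monocytes need, at 1434 ± 292 CPM in control and 298 ± 97.8 CPM at 14 d. The summed level of 7 NK cell markers was 402, 568, 1528 and 1349 CPM in control replicates 1 to 4, in which Fcgr4 was also higher in replicates 3 and 4, 18.2 to 292 CPM at 3 d and 21.2 to 35.9 CPM at 14 d. No marker of either list was at 0. Neutrophil markers, 9 genes, summed to 203 to 298 CPM in control, 227 to 1372 CPM at 3 d and 700 to 1529 CPM at 14 d. Of these 3 were called higher at 3 d (Ly6g, Cxcr2 and S100a8) and 1 at 14 d (Mmp8), and none lower. Over all genes 51.2% and 8.56% were called at these times. Without control replicates 3 and 4 the log2 fold change of Fcgr4 was -1.69 at 3 d (adjusted p = 0.000226) and -1.42 at 14 d (adjusted p = 0.000187). In macrophages the patrolling-monocyte list summed to 1096 to 1378 CPM in control, 769 to 1141 CPM at 3 d and 500 to 585 CPM at 14 d, with 5 of 7 called lower at 14 d, while NK cell markers were at 3.5 to 17.9 CPM in all 3 groups. The part of these cells in the fall of Fcgr4 was not tested. In bulk samples fewer cells of a type and less RNA per cell cannot be told apart.

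Fcgr1, which encodes the high-affinity receptor FcγRI (CD64), was called lower in 3 of 4 comparisons with control. In monocytes it held 302, 306, 320 and 282 CPM in control, 158, 177, 218 and 214 CPM at 3 d, and 170, 196, 205 and 161 CPM at 14 d. Both injury groups lay below control and overlapped with each other. Its log2 fold change was -0.66 ± 0.14 at 3 d (adjusted p = 0.00196) and -0.72 ± 0.14 at 14 d (adjusted p = 0.00336). The 3 d value was -0.19 relative to well-expressed genes and was not called with factors set on such genes (-0.12, adjusted p = 0.515) or without 3 d replicate 1 (log2 fold change -0.53), whereas the 14 d value was called under each other scaling, between -0.74 and -0.62, and was lost only when glmTreat tested against the 1.5-fold threshold itself.

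In macrophages Fcgr1 held 90.0, 66.8, 97.1 and 75.4 CPM in control, 29.0, 60.8 and 20.1 CPM at 3 d, and 38.6, 32.3 and 17.9 CPM at 14 d. All injury samples lay below all controls, with 3 d replicate 2 closest to them. Against control this was a log2 fold change of -1.16 ± 0.36 at 3 d (not called, adjusted p = 0.167) and -1.47 ± 0.37 at 14 d (2.77-fold, adjusted p = 0.00493). At 3 d it was called with DESeq2 (-1.13, adjusted p = 0.015) and without 3 d replicate 2 (-1.70, adjusted p = 0.00206). At 14 d Fcgr1 had only 106 to 268 counts per library.

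Fcgr3, which encodes the activating receptor FcγRIII (CD16), was called against control in 14 d macrophages and in no other comparison with control. In monocytes it held 850 to 1053 CPM in control, 584 to 888 CPM at 3 d and 962 to 1230 CPM at 14 d. Its log2 fold change was -0.41 ± 0.14 at 3 d and 0.19 ± 0.14 at 14 d, neither called. The 3 d value turned positive (0.13) with factors set on well-expressed genes. In macrophages Fcgr3 held 422 to 478 CPM in control, 371 to 462 CPM at 3 d and 228 to 335 CPM at 14 d. Its 14 d log2 fold change of -0.67 ± 0.15 was called (adjusted p = 0.00104), but it was -0.18 relative to well-expressed genes and was not called under the other scalings or the stricter filter, at -0.51 to -0.13.

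Fcgr2b, the inhibitory receptor gene, was called between 3 d and 14 d in monocytes, where it rose, and in no comparison with control. In monocytes it held 601, 523, 554 and 747 CPM in control, 223, 230, 597 and 673 CPM at 3 d, and 1027, 1006, 1297 and 1242 CPM at 14 d. All 14 d samples lay above all control and 3 d samples, and the 3 d samples split into a low and a high pair. Against control it differed by -0.49 ± 0.31 (log2) at 3 d (adjusted p = 0.19) and 0.91 ± 0.31 at 14 d (adjusted p = 0.0926), so neither was called, although the 14 d and control groups did not overlap, as was so for 13.7% of all genes tested. Fitted on these 2 groups alone, without the spread of the 3 d samples, the 14 d difference of 0.91 had an adjusted p of 0.00209. Without 3 d replicate 4, a sample of the high pair, the 3 d difference was -0.81 and called (adjusted p = 0.0337), and over all single samples left out it lay between -0.81 and -0.24. From 3 d to 14 d Fcgr2b rose 2.65-fold (log2 1.41 ± 0.32, adjusted p = 0.0041).

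In macrophages Fcgr2b held 244, 374, 332 and 298 CPM in control, 328, 386 and 418 CPM at 3 d, and 280, 275 and 227 CPM at 14 d. Control overlapped with both injury groups. Against control this was a log2 fold change of 0.27 (95% interval -0.06 to 0.61) at 3 d and -0.26 (-0.60 to 0.08) at 14 d. With library size, upper quartile or well-expressed-gene scaling or the stricter filter the 14 d value was between 0.09 and 0.29.

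Marker lists of other cells that can carry Fcgr2b had different courses in the monocyte sort. Markers of monocyte-derived macrophages, which include the complement genes C1qa, C1qb and C1qc, were called higher at 14 d for 6 of 9 genes. Control samples summed to 2920 to 7791 CPM, those of 3 d to 936 to 1341 CPM and those of 14 d to 3966 to 12209 CPM. Most of this sum was Apoe, not called at 14 d against control, with group means of 4669, 667 and 5043 CPM in that order. Of the 9 markers only Apoe and Adgre1 were called lower at 3 d. The complement genes had no dip at 3 d: C1qa had means of 7.63, 17.5 and 190 CPM and C1qb of 40, 66.1 and 581 CPM. All 9 alveolar macrophage markers together came to 8452 to 15482 CPM in control, 4428 to 9157 CPM at 3 d and 15914 to 21447 CPM at 14 d, of which Chil3 alone was called higher at 14 d. Chil3 made up most of that sum (10293 ± 3369 CPM in control and 18637 ± 2323 CPM at 14 d). Ear2 went from 716 ± 324 to 393 ± 94.5 CPM and Siglecf, the marker of the gate, from 14.0 ± 12.5 to 3.6 ± 1.21 CPM. Mrc1 went from 46.1 ± 12 to 148 ± 43.1 CPM and Itgax from 67.5 ± 31.7 to 128 ± 51.8 CPM. From 3 d to 14 d Itgax, Pparg, Mrc1, Ear2 and Chil3 were called higher and none of this list lower, where 46.5% of all genes were called. The study gated out SigF+CD11b- alveolar macrophages before it sorted the monocytes, and whether any remained was not tested. The 7 B and plasma cell markers summed to 153 to 622 CPM in control, 58.7 to 169 CPM at 3 d and 61.2 to 108 CPM at 14 d. No marker of these lists was at 0, and their part in the level of Fcgr2b was not tested.

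Fcer1g, the gamma chain that FcγRI, FcγRIII and FcγRIV need for surface expression and signalling, was the most abundant member per kb in both cell types. In monocytes it held 2760 to 3245 CPM in control, 1586 to 2206 CPM at 3 d and 2538 to 2894 CPM at 14 d. Samples of 3 d lay below the other groups. The log2 fold change was -0.64 ± 0.12 at 3 d (adjusted p = 0.00116) and -0.13 ± 0.12 at 14 d (adjusted p = 0.574). In macrophages Fcer1g held 462 to 490 CPM in control, 452 to 505 CPM at 3 d and 244 to 371 CPM at 14 d, with a log2 fold change of -0.02 ± 0.14 at 3 d and -0.63 ± 0.15 at 14 d (adjusted p = 0.0014). Both values were near the shift of well-expressed genes, at -0.17 and -0.14 relative to it, and were not called with factors set on such genes (-0.10 and -0.09). The monocyte call was also lost without control replicate 4 (-0.57) or 3 d replicate 1 (-0.52), and the macrophage call without 14 d replicate 3 (-0.55).

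Fcgrt, the gene of the neonatal Fc receptor, was higher in macrophages than in monocytes before injury and fell in macrophages by 14 d. In macrophages it held 578, 421, 626 and 548 CPM in control, 195, 406 and 138 CPM at 3 d, and 137, 159 and 105 CPM at 14 d. Every injury sample lay below every control sample, with 3 d replicate 2 just under the lowest control. The log2 fold change was -1.14 ± 0.31 at 3 d (not called, adjusted p = 0.108) and -2.02 ± 0.32 at 14 d (4.06-fold, adjusted p = 0.000238). Without 3 d replicate 2 the 3 d value was -1.67 (adjusted p = 7.00e-05), and the 14 d fall was called under all 20 alternatives run, between -2.23 and -1.47.

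In monocytes Fcgrt held 152, 141, 183 and 118 CPM in control, 40.8, 63.7, 79.4 and 70.5 CPM at 3 d, and 144, 121, 119 and 109 CPM at 14 d. The 3 d samples lay below both other groups, and the 14 d samples overlapped with control. Its log2 fold change was -1.22 ± 0.20 at 3 d (2.33-fold, adjusted p = 0.000683), -0.27 ± 0.19 at 14 d (adjusted p = 0.463) and 0.95 ± 0.20 from 3 d to 14 d (adjusted p = 0.00262). The rise from 3 d to 14 d was 0.51 relative to well-expressed genes and as low as 0.52 over the other settings. It was not called with library size, upper quartile or well-expressed-gene scaling or the stricter filter. B2m, which encodes the β2-microglobulin that FcRn needs, was called lower at 14 d in both cell types and also in 3 d monocytes. For monocytes the mean level of B2m before injury was 5953 ± 1233 CPM. The 3 d monocytes had a mean of 3216 ± 421 CPM, a log2 fold change of -0.89, and the 14 d monocytes one of 2891 ± 133. In macrophages the 14 d mean of B2m was 707 ± 82.8 CPM, against 1589 ± 206 without injury.

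**Figure D2:**
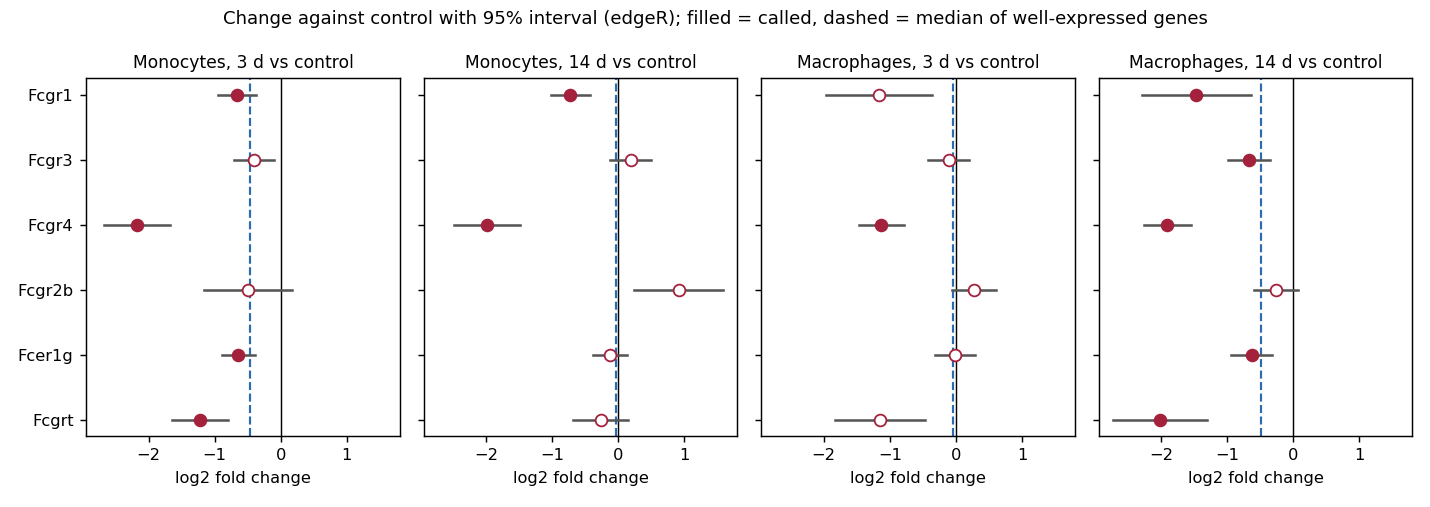
Log2 fold change of each member against control with its 95% interval, by cell type and time (filled points were called, the dashed line is the median of well-expressed genes). Fcgr4 is called in all 4 panels, and only the monocyte 14 d panel has Fcgr2b well to the right of 0, at 0.91, where it was not called.

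Counts over the family use calls, for which the adjusted p had to be under 0.05 and the fold change above 1.5. In monocytes 4 of 6 members were called at 3 d, where 51.2% of all 22353 genes tested were called, and 2 of 6 at 14 d, where 8.56% were. In macrophages 1 of 6 was called at 3 d against 1.27% of all 20944 genes, and 5 of 6 at 14 d against 62.3%. All called changes against control were falls, while lower calls made up 14.4%, 5.34%, 0.224% and 22.9% of all genes in these comparisons. Under DESeq2, library size, upper quartile or well-expressed-gene scaling, the calls at 3 d in monocytes came down to Fcgr4 and Fcgrt, and those at 14 d in macrophages to Fcgr1, Fcgr4 and Fcgrt. Between 3 d and 14 d, 3 members rose in monocytes (Fcgr2b, Fcgr3 and Fcgrt, against 46.5% of genes called, 2677 genes of 22353 higher) and 3 fell in macrophages (Fcgr4, Fcer1g and Fcgrt, against 56.4% called, 4195 genes of 20944 lower). With library size scaling 1 of these calls was left in monocytes (Fcgr2b) and 0 in macrophages. The samples of the 2 groups did not overlap for 4 (3 d) and 3 (14 d) members in monocytes and 3 and 5 in macrophages, where this was so for 51.2%, 13.7%, 14.0% and 70.8% of genes, and between 3 d and 14 d for 4 in each cell type, against 51.4% and 65.5%.

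The cell types differed in the size of these changes. The difference of the log2 changes, macrophages less monocytes, was tested in a joint fit of all 22 samples. At 3 d it was called for Fcgr4 alone (0.87 ± 0.30, adjusted p = 0.0415, against 18.7% of 26692 genes): the fall was larger in monocytes. This call was lost in 10 of 22 fits that left out 1 sample, with estimates of 0.66 to 0.94 in them: control replicates 3 and 4 and 3 d replicates 1, 2 and 4 of monocytes, and control replicates 1, 2 and 4 and 3 d replicates 1 and 2 of macrophages. At 14 d it was called for Fcgr1 (-1.1 ± 0.35), Fcgr2b (-1.51 ± 0.39), Fcgr3 (-1.21 ± 0.21), Fcer1g (-0.85 ± 0.18) and Fcgrt (-2.11 ± 0.36), with adjusted p between 0.000121 and 0.0178 and against 36.8% of all genes called, 19.9% in this direction. The median of well-expressed genes in that contrast was -0.82, and Fcgrt was the member called with each of the 4 other scalings, at -1.70 to -1.33. For Fcgr4 the difference at 14 d was -0.27 with an interval from -0.88 to 0.35, and it turned positive under all 4 other scalings.

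In control animals 5 of 6 members differed between the cell types, where 44.2% of all genes were called. In CPM of the joint fit, macrophages held 8.08-fold less Fcer1g (adjusted p = 1.24e-15), 4.73-fold less Fcgr1, 2.74-fold less Fcgr3 and 2.52-fold less Fcgr2b than monocytes, and 2.85-fold more Fcgrt (adjusted p = 1.16e-05). Fcgr4 did not pass the test (log2 difference -0.42, adjusted p = 0.0917). Counts of members that differed were 5 at 3 d, against 63.1% of genes, and 5 at 14 d, against 63.7%. By 14 d the log2 difference of Fcgrt was -0.60 (adjusted p = 0.0502), and its sign, like that of Fcgr4 at 14 d (-0.69), turned with library size scaling (0.49 and 0.40). The cell types were deposited in separate tables, so any difference in their processing cannot be told apart from cell type.

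The balance of activating to inhibitory receptors was computed within each library, as the log2 ratio of summed Fcgr1, Fcgr3 and Fcgr4 counts per kb to Fcgr2b counts per kb, which does not depend on the scaling of the library. As a score over the members it is described with no test. In monocytes it was 2.89, 3.21, 3.15 and 2.66 in control, 3.55, 3.47, 2.44 and 2.43 at 3 d, and 2.07, 1.95, 1.88 and 1.67 at 14 d. All 14 d samples lay below all others, and the 3 d samples fell on both sides of control, along the split of Fcgr2b. In linear terms the median ratio was 8.16 in control and 3.77 at 14 d.

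In macrophages the balance was 3.34, 2.7, 3.06 and 3.07 in control, 2.47, 2.47 and 1.94 at 3 d, and 2.12, 2.42 and 2.14 at 14 d. Every injury sample lay below every control sample, and the 2 injury groups overlapped. The difference of medians from control was -0.59 at 3 d and -0.93 at 14 d, against a pooled SD between replicates of 0.28 and 0.23. In monocytes it was -0.07 at 3 d (SD 0.48) and -1.11 at 14 d (SD 0.21). Gene by gene at 14 d, all Fcgr2b values of monocytes lay above control and those of Fcgr4 and Fcgr1 below, where 13.7% of genes did not overlap. In macrophages Fcgr2b overlapped with control and the 3 activating genes lay below it, where 70.8% of genes did not overlap. Unlike the balance, these single-gene positions depend on the scaling: with library size, upper quartile or well-expressed-gene scaling the log2 change of Fcgr2b in 14 d macrophages was 0.09 to 0.29, and Fcgr3, at -0.32 to -0.13, was not called.

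**Figure D3:**
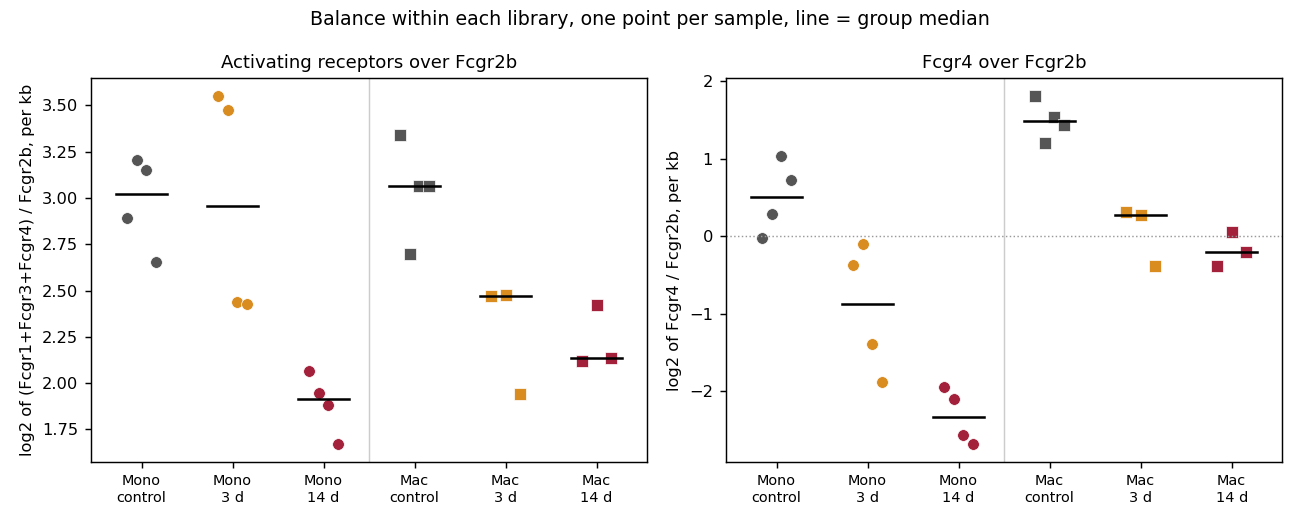
Balance of activating to inhibitory receptors (left) and of Fcgr4 to Fcgr2b (right) in every sample, as log2 ratios per kb within a library, with the group median as a bar. The 14 d monocytes sit between 1.67 and 2.07 on the left, below all control monocytes (2.66 to 3.21), and the 3 d monocytes split into 2 pairs.

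The ratio of Fcgr4 to Fcgr2b alone was also computed. In monocytes its log2 value was -0.02 to 1.04 in control, -1.89 to -0.10 at 3 d and -2.69 to -1.95 at 14 d, so that no group overlapped with another. In macrophages it was 1.2 to 1.81 in control, -0.39 to 0.32 at 3 d and -0.38 to 0.06 at 14 d. Control macrophages thus had more Fcgr4 than Fcgr2b per kb in every sample, and 14 d monocytes had less in every sample.

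As a share of the 4 IgG receptors per kb, Fcgr2b made up 9.77% to 13.7% in control monocytes, 7.86% to 15.7% at 3 d and 19.3% to 23.9% at 14 d. Fcgr4 made up 11.7% to 22.7%, 4.24% to 7.69% and 3.58% to 5.01% in the same groups. Fcgr3 was the largest part throughout, at 52.0% to 73.6% in monocytes. In macrophages Fcgr4 made up 28.8% to 31.6% in control, 15.8% to 19.0% at 3 d and 14.4% to 16.3% at 14 d, and Fcgr2b 8.99% to 13.4%, 15.2% to 20.7% and 15.7% to 18.7%. The make-up thus had a smaller Fcgr4 part and a larger Fcgr2b part at 14 d in both cell types, with no overlap with control.

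**Figure D4:**
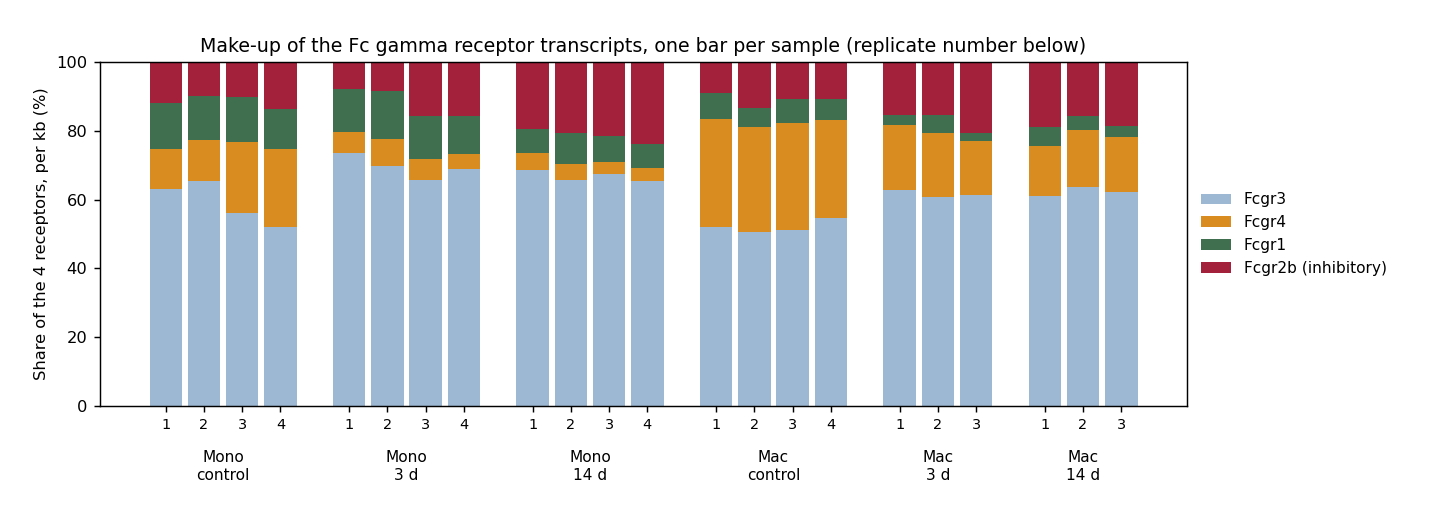
Make-up of the 4 IgG receptor transcripts in every sample, as shares (%) of their summed counts per kb, with 1 bar per sample. The Fcgr2b part is at most 13.7% in control monocytes and at least 19.3% at 14 d, and the Fcgr4 part is at least 28.8% in control macrophages and at most 16.3% at 14 d.

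The gamma chain was compared with the receptors that use it. Fcer1g exceeded the summed activating receptors per kb by a log2 ratio of 1.92 to 2.19 in control monocytes, 1.79 to 2.34 at 3 d and 2.00 to 2.23 at 14 d. In macrophages this ratio was 0.22 to 0.40 in control, 0.49 to 0.90 at 3 d and 0.69 to 0.74 at 14 d, so that every injury sample lay above every control sample. No macrophage sample reached the lowest monocyte value.

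The promoters of Fcgr1, Fcgr4 and Fcgr2b are shown because the first 2 genes fell together at 14 d in both cell types while Fcgr2b did not. They are the 250 bases before the start in RefSeq on GRCm38.p6, at chr3:96293970-96294219 (minus strand), chr1:171018676-171018925 (plus strand) and chr1:170976072-170976321 (minus strand), the last of which lies inside the gene as GENCODE draws it. All 6 members had such a window. Capitals mark 3 searched motifs, read on both strands, with no overlap between matches: the gamma-activated site core TTCNNNGAA, the PU.1 core, seen here as CTTCCTC, and the interferon-stimulated element core, seen here as GAAAAGGAAA.
Fcgr1: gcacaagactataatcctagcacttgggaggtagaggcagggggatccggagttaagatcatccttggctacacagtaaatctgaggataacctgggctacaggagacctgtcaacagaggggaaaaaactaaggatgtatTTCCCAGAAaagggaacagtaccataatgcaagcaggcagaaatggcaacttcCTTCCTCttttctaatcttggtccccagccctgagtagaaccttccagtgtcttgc
Fcgr4: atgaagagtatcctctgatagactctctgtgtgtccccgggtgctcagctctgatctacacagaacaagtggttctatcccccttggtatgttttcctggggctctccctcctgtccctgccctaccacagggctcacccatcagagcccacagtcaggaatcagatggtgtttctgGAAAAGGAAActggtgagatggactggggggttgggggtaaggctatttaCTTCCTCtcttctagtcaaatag
Fcgr2b: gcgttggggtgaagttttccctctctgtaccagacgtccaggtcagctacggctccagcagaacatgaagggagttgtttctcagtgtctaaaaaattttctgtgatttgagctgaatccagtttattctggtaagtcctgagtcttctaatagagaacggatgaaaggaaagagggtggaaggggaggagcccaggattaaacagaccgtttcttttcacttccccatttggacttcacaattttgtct

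Fcgr1 held a gamma-activated core (TTCCCAGAA, 109 bases before the start) and a PU.1 core at 56 bases. Fcgr4 held an interferon-stimulated core (GAAAAGGAAA, 73 bases) and a PU.1 core at 23 bases. Fcgr3 held a PU.1 core close to its start, and no match lay in these windows of Fcgr2b, Fcer1g or Fcgrt. Of 32851 windows of the same length, 7.02% held the gamma-activated core, 10.6% the PU.1 core and 2.98% the interferon-stimulated core.

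Signals known to set receptor levels were followed as a list of 13 genes, and like the other lists it is described by counts. Beside these counts, 51.2% (3 d) and 8.56% (14 d) of all genes were called in monocytes and 1.27% and 62.3% in macrophages. Interferon-gamma and C5a can raise activating receptors, while IL-4 and TGF-β can favour the inhibitory one. In monocytes 10 of 13 were called lower at 3 d and 6 lower and 1 higher at 14 d, with a median log2 fold change of -0.65 at 14 d. Irf1, an interferon-induced transcription factor, fell from 342 ± 85.6 to 98.4 ± 12.9 CPM at 14 d (log2 -1.80, adjusted p = 5.98e-05). Il10ra, a subunit of the IL-10 receptor, fell by 1.84 on the log2 scale and Il4ra, a subunit of the IL-4 receptor, rose from 189 ± 61.1 to 341 ± 75.5 CPM (0.85, adjusted p = 0.0497). In macrophages none of the 13 was called at 3 d, and 12 were called lower at 14 d with a median of -1.0, among them both TGF-β receptor genes, Tgfbr2 (-1.73) and Tgfbr1 (-1.53), and C5ar1 (-1.71), the receptor of C5a. Il4ra was the exception, at -0.09.

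Kinases and adaptors downstream of the gamma chain formed a list of 23 genes. In monocytes 14 were called lower and 2 higher at 3 d, and 5 lower and 1 higher at 14 d. Plcg2, a phospholipase of this cascade, fell from 557 ± 106 to 275 ± 43.0 CPM at 14 d (-1.02, adjusted p = 0.00165). In macrophages 1 was called at 3 d, Lat2 (higher, 2.06), and at 14 d 15 were lower and 4 higher. Plcg1, a related phospholipase, rose there from 27.3 ± 1.56 to 124 ± 53.9 CPM, and Syk, the central kinase, fell by 1.13 on the log2 scale.

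Of 14 genes on the inhibitory side, 9 were called lower in monocytes at 3 d, 4 lower at 14 d, none in macrophages at 3 d and 7 lower in macrophages at 14 d, and none was called higher. Inpp5d, which encodes the SHIP1 that FcγRIIb recruits, went from 359 ± 77.8 to 175 ± 34.1 CPM in 3 d monocytes (-1.03) and had a log2 fold change of -0.63 at 14 d (adjusted p = 0.0385). Sirpa, an inhibitory receptor for CD47, went from 1770 ± 33.9 to 683 ± 145 CPM in 14 d macrophages (-1.37), and Pag1, a scaffold for the kinase Csk, fell by 1.92. In 14 d monocytes, where every Fcgr2b value lay above control, 4 of these genes were lower.

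Of 12 partners of the gamma chain and related adaptors, 11 were tested in monocytes, of which 6 were called lower in monocytes at 3 d, and 3 higher and 4 lower at 14 d. The 3 that rose at 14 d were the C-type lectins Clec4n (Dectin-2, 2.04), Clec4d (1.37) and Clec4e (Mincle, 0.89), receptors for fungal and mycobacterial ligands that signal through the gamma chain. In macrophages none was called at 3 d, and 4 rose and 5 fell at 14 d, with Itgam, the CD11b of the sort gate, from 1.76 ± 0.894 to 76.3 ± 24.1 CPM (5.45) and Tyrobp, the adaptor DAP12, from 1047 ± 9.04 to 468 ± 103 CPM. At 14 d the macrophage libraries also held more neutrophil markers (9 genes summing to 383 to 1527 CPM against 69.0 to 214 CPM in control). Of 7 tested, 6 were called higher and Mmp8 lower. Eosinophil markers summed to 28.4 to 107 CPM against 0.664 to 1.9 CPM, with 4 of 4 called higher. Markers of monocyte-derived macrophages were split, with 6 of 9 called higher and 3 lower (Mertk, Adgre1 and Gpnmb). Of 9 alveolar macrophage markers 6 were called lower and none higher. In this comparison 62.3% of all genes were called (8258 higher, 4793 lower). The labels name these sorted cells SigF+CD11b-, and whether other cells were among them was not tested. The part of neutrophils, eosinophils or monocyte-derived macrophages in the changes of the members at 14 d was not tested either.

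Of 23 genes of the phagocytic machinery, 13 were called lower and 1 higher in monocytes at 3 d, and 3 lower at 14 d. In macrophages 1 of 22 tested was called higher at 3 d, and 11 were lower and 2 higher at 14 d. Calls made up 60.9% of this list in 3 d monocytes and 59.1% in 14 d macrophages. Over all genes they made up 51.2% and 62.3%, and over well-expressed genes 35.2% and 51.3%. The calls of the list were mostly lower, whereas those over all genes were mostly higher. Lower calls made up 14.4% and 22.9% of all genes. The list medians there were -0.64 and -0.58, against -0.47 and -0.49 for well-expressed genes. Cybb, the catalytic subunit of the phagocyte oxidase, fell from 1549 ± 69.7 to 396 ± 80.3 CPM in 14 d macrophages (-1.97) and Marcks, an actin-binding membrane protein, rose from 8.90 ± 2.33 to 63.6 ± 13.8 CPM (2.84). In 14 d monocytes Dock2 (-0.87), Myo1f (-0.86) and Elmo1 (-0.66) were lower.

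Among 12 other immunoglobulin receptors, 11 were tested in each cell type. In monocytes 3 were called higher at 3 d, and 2 higher and 4 lower at 14 d. In macrophages 4 were called higher at 3 d, and 3 higher and 1 lower at 14 d. Trim21, an antibody receptor of the cytosol, was lower at 14 d in both cell types, from 27.6 ± 7.01 to 11.6 ± 1.99 CPM and from 11.7 ± 1.4 to 4.85 ± 1.1 CPM. Fcer1a and Ms4a2, the other chains of the IgE receptor that uses Fcer1g, rose at 3 d in macrophages (log2 4.86 and 4.68), from low levels. They moved with markers of mast cells and basophils, 4 of 6 called higher at 3 d and summing to 45.6 to 99.7 CPM against 5.05 to 10.9 CPM in control, and the part of such cells was not tested.

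**Figure D5:**
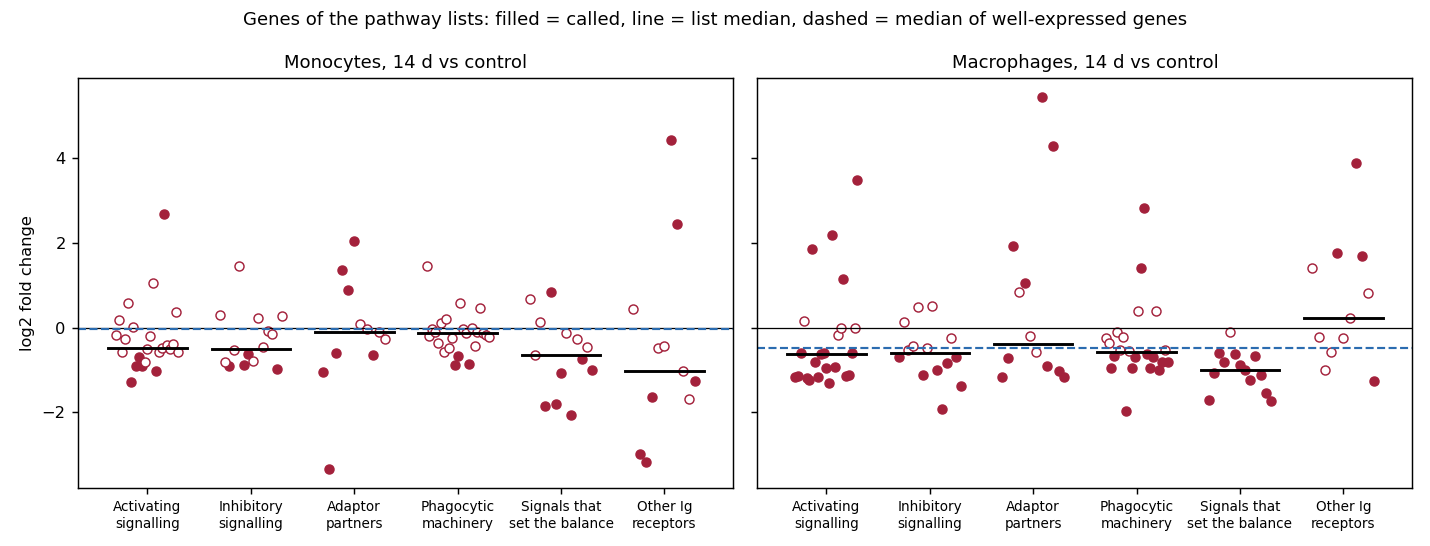
Log2 fold change at 14 d against control for every tested gene of the 6 pathway lists in monocytes (left) and macrophages (right), with filled points for called genes, a bar for the list median and a dashed line for the median of well-expressed genes. Signals that set the balance had the lowest median of the 6 lists in macrophages (-1.0), where 12 of 13 were called lower.

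Over all 97 genes of the lists, 95 were tested per cell type. In monocytes 61.1% were called at 3 d (58 genes) against 51.2% of all genes, and 34.7% at 14 d (33 genes) against 8.56%. In macrophages 6.32% were called at 3 d (6 genes) against 1.27%, and 67.4% at 14 d (64 genes) against 62.3%. The median log2 fold change of the list genes was -0.67 and -0.38 in monocytes and -0.12 and -0.61 in macrophages (3 d and 14 d), where that of all genes tested was 0.22, 0.09, -0.01 and 0.18 and that of the well-expressed genes (mean log2 CPM above 3) -0.47, -0.03, -0.05 and -0.49. Of the well-expressed genes 35.2%, 13.7%, 1.39% and 51.3% were called. The 3 d monocyte count was between 15 and 75 and the 14 d macrophage count between 37 and 72 over the other settings.

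Genes with a pattern most like each member were found by the root mean square (RMS) difference of centred log2 CPM over the samples of a cell type, among genes with a mean log2 CPM above 3. In the 12 monocyte samples they were Cd82, Cyth3 and Pilrb2 for Fcgr4 (RMS 0.34 to 0.38, against a spread of Fcgr4 of 1.00), Srgn, Ccl4 and Lgmn for Fcgr2b (0.30 to 0.36, spread 0.79), and Rela, Slc25a10 and Ccl6 for Fcgrt (0.23 to 0.24, spread 0.60). In the 10 macrophage samples they were Pxmp4, Grb7 and Dhrs3 for Fcgrt (0.15 to 0.18, spread 0.95), Gm17233, Pla2g15 and Spns1 for Fcgr4 (0.20 to 0.23, spread 0.83), and Bmf, P2ry2 and Pilra for Fcgr1 (0.23 to 0.25, spread 0.84). These groups share libraries and scaling, so likeness is a description of these samples.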

How the data were processed

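RNA of sorted lung cells was sequenced as paired reads, and the authors deposited 2 tables of raw gene counts, 1 for 12 monocyte and 1 for 10 macrophage samples, with 55421 and 31134 genes. The submitters' processing notes name STAR 2.7.2c and 2.7.3a, featureCounts 1.6.3, DESeq2 1.26.0 and 1.28.1 and the builds GRCm38 and mm10. Which version made which table, the strand setting and the treatment of multimapping reads are not given in the sources used here. Samples were grouped by the labels.

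From the deposited counts, genes were filtered with filterByExpr, scaled by TMM and tested with the quasi-likelihood test of edgeR 4.0.16 (limma 3.58.1, R 4.3.3), each cell type on its own with its 3 groups, and all 22 samples together for differences between cell types. A gene was called at a Benjamini-Hochberg adjusted p under 0.05 over all genes tested and a fold change above 1.5. CPM values were scaled within a cell type, so levels in different cell types are compared only in the joint fit. The balance used counts per exonic kb within a library. The fitting code was also tried on simulated data, but no outcome of that is given here. How far the calls depend on scaling is seen only from the alternatives run on the deposited counts.

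The members and lists were chosen with earlier results of these data known. Of each pathway list, up to 3 called genes per direction with the largest change and a mean log2 CPM above 3 were named; Syk, Fcer1a, Ms4a2, Inpp5d at 14 d and Il4ra in macrophages were named after their values were seen. Some list genes are counted but not reported here by name. Alternatives were DESeq2 1.42.0, other scalings (in well-expressed-gene scaling, TMM used only genes whose mean log2 CPM exceeded 5) and filters, glmTreat, the replicate block, fewer groups and leaving out each sample. Total counts of 4610720 to 28789639 per sample set the precision, and intervals are at 95%. No libraries were duplicates.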

Additional observations from a re-analysis of the deposited data

Results flagged for a closer look

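The change from control differed between macrophages and monocytes, by the interaction test of the joint fit of 22 samples, for 1 member at 3 d and 5 at 14 d. Of all genes 18.7% and 36.8% were called in these tests. At 3 d the difference in log2 change, macrophages less monocytes, was 0.87 for Fcgr4, a call lost in 10 of 22 fits that left out 1 sample. At 14 d it was -1.10 for Fcgr1, -1.51 for Fcgr2b, -1.21 for Fcgr3, -0.85 for Fcer1g and -2.11 for Fcgrt, where the median of well-expressed genes was -0.82. Relative to that median Fcer1g was at -0.03. With library size, upper quartile or well-expressed-gene scaling, Fcgrt alone was still called. For Fcgr2b all 4 monocyte samples lay above control at 14 d, while the 3 macrophage samples overlapped with control.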

How the results depend on the processing

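Counts of called members moved with the scaling. At 3 d in monocytes (4 called) 2 were called with DESeq2, library size, upper quartile or well-expressed-gene scaling, the stricter filter or glmTreat, and 2 to 5 when 1 library was left out, with 2 without 3 d replicate 1. At 14 d (2 called) glmTreat left 1. From 3 d to 14 d in monocytes (3 called) the 3 scalings without DESeq2 left 1 and the stricter filter 0. In macrophages at 3 d (1 called) DESeq2 gave 3 and glmTreat 0, and leaving out 1 library gave 1 to 3, with 3 without 3 d replicate 2. At 14 d (5 called) these scalings, the stricter filter and glmTreat left 3. From 3 d to 14 d in macrophages (3 called) library size, upper quartile and well-expressed-gene scaling, the stricter filter and glmTreat left 0, the compared groups alone 1, no filter and the adjusted p alone 5, and leaving out 1 library gave 1 to 5, with 5 without control replicate 4, 3 d replicate 1 or 3 d replicate 3 and 1 without 14 d replicate 3. The difference between cell types at 3 d (1 member) was lost (0) with library size or upper quartile scaling, the stricter filter, glmTreat or the compared groups alone, and leaving out 1 library gave 0 to 1. With well-expressed-gene scaling Fcgr4, the member called, was lost too, and Fcgr1 was called in its place. At 14 d (5 members) DESeq2 and glmTreat left 3, the stricter filter 2 and the other scalings 1.

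Of the pathway lists at 3 d in monocytes (58 genes), 19 were called with library size, 23 with upper quartile and 18 with well-expressed-gene scaling, 15 with the stricter filter and 26 with glmTreat. At 14 d (33) glmTreat left 14. In macrophages at 3 d (6) DESeq2 gave 10 and leaving out 1 library 4 to 18, with 18 without 3 d replicate 2. At 14 d (64) library size scaling gave 42, well-expressed-gene scaling 37 and the stricter filter 39.

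The balance at 3 d in monocytes (-0.07) was -0.58 without Fcgr3, -1.39 for Fcgr4 alone, and -0.59 to 0.45 when 1 library was left out: -0.59 without 3 d replicate 1 or 2 and 0.45 without 3 d replicate 3 or 4. At 14 d (-1.11) it was -2.13 without Fcgr3, -1.73 for Fcgr1 alone and -2.85 for Fcgr4 alone. In macrophages the same 3 settings gave -1.24, -1.62 and -1.21 at 3 d (-0.59), and -1.67, -1.21 and -1.69 at 14 d (-0.93).

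Some values changed sign, and of these 1 was called. In monocytes Fcgr2b at 3 d was 0.04 with well-expressed-gene scaling and Fcgr3 0.08 and 0.13 with library size and well-expressed-gene scaling. From 3 d to 14 d Fcgr1 was 0.11 with no filter and -0.21 to 0.02 when 1 library was left out, and Fcgr4 was -0.18 (library size), -0.20 (upper quartile), -0.24 (well-expressed genes) and -0.18 (stricter filter). In macrophages Fcer1g at 3 d was 0.03 with DESeq2, 0.04 (upper quartile), 0.05 (well-expressed genes), 0.01 (no filter), 0.02 (stricter filter, and the compared groups alone) and -0.06 to 0.05 when 1 library was left out. Fcgr2b at 14 d was 0.18, 0.09 and 0.29 with library size, upper quartile and well-expressed-gene scaling and 0.11 with the stricter filter. Fcgr1 from 3 d to 14 d was 0.10 (library size), 0.17 (well-expressed genes), 0.02 (stricter filter) and -0.76 to 0.04 when 1 library was left out. Of the differences between cell types, Fcgr3 at 3 d was -0.18, -0.20 and -0.06 with library size scaling, well-expressed-gene scaling and the stricter filter. Fcgrt at 3 d was 0.12 with no filter and -0.51 to 0.44 when 1 library was left out. Fcgr4 at 14 d was 0.11 with DESeq2, 0.40, 0.35 and 0.50 with the other scalings and 0.32 with the stricter filter. At 14 d macrophages against monocytes gave 0.40 and 0.42 for Fcgr4 (called at -0.69) and 0.49 and 0.51 for Fcgrt with library size and well-expressed-gene scaling, and 0.05 for Fcgrt with the stricter filter. The cause of these shifts was not tested.

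The labels do not say whether replicate numbers pair the samples. Deviations of same-numbered samples correlated between -0.43 and 0.53. For control and 14 d monocytes the range was 0.01 to 0.53, against -0.55 to 0.32 for samples with different numbers. Whether the numbers mark a shared order or batch was not tested. With the number as a replicate block, 5, 3 and 3 members were called in the monocyte comparisons and 1, 5 and 2 in macrophages, and Fcgr2b in monocytes was called against control at both times, at -0.63 at 3 d (adjusted p = 0.0483) and 0.91 at 14 d (adjusted p = 0.0419).

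Over all genes, calls at 3 d in monocytes numbered 11438 (8215 higher, 3223 lower), 10242 with library size scaling (9743 and 499), 1468 with the stricter filter and 19592 with no filter. From 3 d to 14 d they numbered 10395, 1557 with the stricter filter and 16664 with no filter, and at 14 d 1914 and 910 with glmTreat. In macrophages they numbered 267 at 3 d, 763 with DESeq2, 133 with the block and 65 with glmTreat, 13051 at 14 d (8258 higher, 4793 lower), 11575 with library size scaling (9786 and 1789) and 5018 with the stricter filter, and 11806 from 3 d to 14 d and 4236 with the stricter filter. Depth was lowest in 14 d macrophages, where Fcgr1 had 106 to 268 counts.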
